A study of Mus musculus with 6 samples.

Results

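The genes of the mouse major histocompatibility complex (MHC), called H2, were examined in lumbar dorsal root ganglia of embryos at E12.5. All 44 rows of the deposited table whose symbol starts with H2- were taken, with B2m, Tap1, Tap2, Tapbp, Psmb8, Psmb9, Cd74, Nlrc5 and Ciita, which gave 53 of the 24264 genes in the table. The 3 miR_cKO libraries came from embryos homozygous for a flox allele of the microRNA cluster miR-183-96-182 that also carried Wnt1-Cre. They were set against 3 control libraries, of which controls 1 and 3 were titled Wnt-Cre and control 2 was titled WT; whether these carried a flox allele is not given. Wnt1-Cre acts in the neural crest, the source of sensory neurons and their glia, and leaves macrophages and vessels of the ganglion undeleted. All 6 libraries came from a mixed C57/Bl6 x 129/SvEv background, whose parent strains are known for the related b and bc haplotypes of H2, and the labels do not say which haplotype each embryo carried. A difference in haplotype between the groups therefore cannot be told apart from a difference in genotype. Nor do the labels say whether a library held 1 embryo, so p-values measure the spread between these libraries.

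MHC class I proteins present peptides from inside the cell to CD8+ T cells, and each is held at the surface by the light chain beta-2 microglobulin. The immunoproteasome subunits Psmb8 and Psmb9 cut these peptides, Tap1 and Tap2 carry them into the endoplasmic reticulum, and Tapbp, or tapasin, helps to load them. Class II proteins present peptides from outside the cell and are made mainly by dendritic cells, B cells and macrophages, under the transactivator Ciita; Nlrc5 plays that part for class I. Neurons are known for low class I expression, with roles of class I proteins described in synapse remodelling. The H2 genes are highly polymorphic between strains, and several are recent duplicates of each other.

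The deleted microRNAs share much of their seed, the bases that pair with target messages. Their mature sequences are shown to give the letters that were looked for in the MHC messages (RefSeq, GRCm38.p6, chromosome 6, minus strand), with the seed, bases 2 to 8, in capitals.
mmu-miR-183-5p: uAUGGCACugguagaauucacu
mmu-miR-96-5p: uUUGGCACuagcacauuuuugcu
mmu-miR-182-5p: uUUGGCAAugguagaacucacaccg
Of the 45 MHC genes with an annotated 3' UTR, 8 held at least 1 match of 7 letters to these seeds. A match was either to bases 2 to 8, or to bases 2 to 7 with an A after them in the message. Among those tested below, 2 of 15 held a match, 13.3%, against 34.6% of 12131 tested genes with a 3' UTR. These 2 were B2m and H2-Q1, each with 1 match, which miR-182 and miR-96 shared. The UTRs of the tested MHC genes were also short, with a median of 419 bases, against 1168 bases for the tested genes. H2-DMa, H2-D1 and H2-T24, described below, held no match.

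Depth was estimated at 22.4, 22.1 and 20.8 M reads in miR_cKO 1 to 3, and at 21.6, 24.2 and 20.1 M reads in controls 1 to 3. Levels are given as RPKM, reads normalised to transcript length and to library depth. Mir183, Mir96 and Mir182, the deleted genes, were listed at 0 in all 6 libraries, so these values do not check the deletion. The ganglion markers were present in each library, with a summed level of 12 sensory neuron genes between 1842 and 2668 RPKM. Xist, which coats an inactive X, had 96.0 RPKM in miR_cKO 1 and no more than 0.0890 RPKM in the other libraries. The 9 skeletal muscle genes summed to 28.9, 31.1 and 39.1 RPKM in miR_cKO 1 to 3, and to 30.1, 162 and 127 RPKM in controls 1 to 3. The 10 mesenchyme genes summed to 204, 273 and 304 RPKM in miR_cKO and to 234, 391 and 429 RPKM in controls. Of 13118 genes tested for a difference between the groups, 8 passed (0.061%; limma, Benjamini-Hochberg adjusted p under 0.05), 7 of them higher (0.0534%) and 1 lower (0.00762%) in miR_cKO.

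Most MHC genes were scarce. Of the 53, 6 were listed at 0 in all 6 libraries: H2-Ea-ps, H2-Ob, H2-M2, H2-M10.1, H2-M10.4 and H2-M10.6. A further 28 were above 0 in some library but did not reach 1 RPKM in 3 libraries, the level required for a test, and 19 reached it. Estimated reads, taken from the whole-number steps of the values, could be given for all 44 members above 0 in at least 2 libraries, and 18 of these had 50 reads or fewer over all libraries together. The highest level was that of B2m, which averaged 36.2 ± 18.2 RPKM in miR_cKO and 41.0 ± 11.4 RPKM in controls (SD, n = 3 each). H2-Ke2, which despite its name encodes the prefoldin subunit Pfdn6 and has no part in presentation, averaged 35.7 ± 1.62 RPKM in miR_cKO and 40.4 ± 1.85 RPKM in controls.

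**Figure D1:**
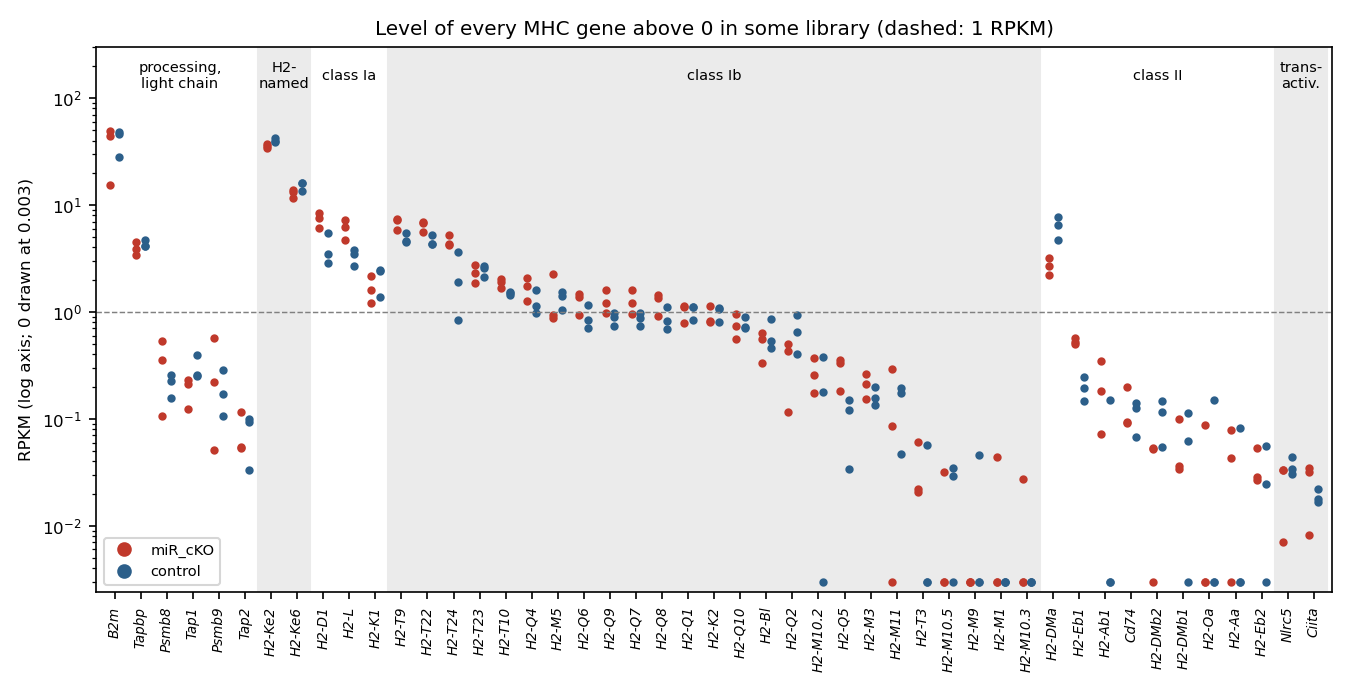
Level in RPKM (log axis) of each of the 47 MHC genes above 0 in some library, with 1 point per library, grouped by class; values of 0 are drawn at the foot of the axis. B2m stands highest, most class I genes lie between 0.1 and 10 RPKM, and H2-DMa is the only class II gene above 1 RPKM.

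None of the 19 MHC genes tested passed (limma, adjusted p under 0.05), where 0.061% of all genes did. At an unadjusted p under 0.05 there were 8 of 19, or 42.1%, against 5.16% of all genes tested: 5 were higher in miR_cKO, where 2.85% of all genes were, and 3 lower, where 2.31% were. The 5 higher were H2-D1, H2-L, H2-T22, H2-T9 and H2-T24. The 3 lower were H2-DMa and 2 genes with no part in presentation, H2-Ke2 and H2-Ke6. The groups did not overlap for 8 of 19, against 10.9% of all genes, with 6 higher (4.63% of all genes) and 2 lower (6.24%). These 8 are not independent, since several share reads or lie side by side, and the members were chosen with earlier results of these data known. Of the 19, 9 had a log2 difference above 0 and 10 below 0, with a median of -0.01, beside -0.02 over all genes tested.

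**Figure D2:**
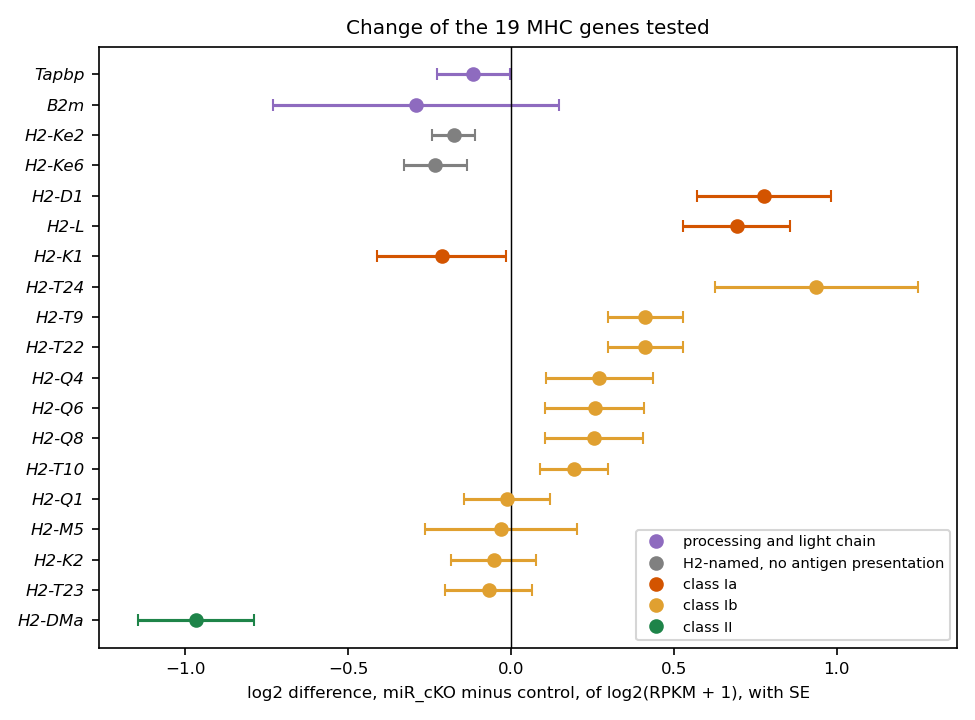
Fitted log2 difference, miR_cKO minus control, on the scale log2(RPKM + 1), with its standard error, for the 19 MHC genes tested, coloured by class. H2-DMa lies lowest at -0.97, H2-T24, H2-D1 and H2-L lie highest at 0.94, 0.78 and 0.69, and none passed the adjusted threshold.

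Among class II genes, H2-DMa stood apart in level, and it alone could be tested. It encodes the alpha chain of H2-DM, which exchanges peptides on class II molecules inside the cell. H2-DMa was at 3.21, 2.67 and 2.22 RPKM in miR_cKO 1 to 3, and at 4.70, 6.49 and 7.69 RPKM in controls 1 to 3, from an estimated 61, 50 and 39 reads in miR_cKO and 86, 133 and 131 reads in controls. All miR_cKO libraries lay below all controls. The means were 2.70 ± 0.498 RPKM in miR_cKO and 6.29 ± 1.51 RPKM in controls, a log2 difference of -0.97 (SE 0.18) that did not pass (limma, unadjusted p = 0.00103, adjusted p = 0.215) and ranked 63 by p among all genes. With controls 2 and 3, those with more muscle and mesenchyme RNA, left out it was -0.63.

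The other class II genes were close to the floor. H2-DMb1 and H2-DMb2, which encode beta chains that pair with the H2-DMa product, had 10 and 8 reads over all 6 libraries. Cd74, the invariant chain that escorts class II molecules, had 23 reads, H2-Ab1 had 20 and H2-Aa had 5. Together the 10 class II genes other than H2-DMa summed to 0.974, 0.894 and 1.31 RPKM in miR_cKO 1 to 3, and to 0.713, 0.719 and 0.443 RPKM in controls 1 to 3. H2-DMa alone exceeded that sum in every library.

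H2-Eb1, the beta chain of the class II E molecule, was the most abundant of these scarce genes. It was at 0.525, 0.505 and 0.566 RPKM in miR_cKO 1 to 3, from 20, 19 and 20 estimated reads, and at 0.245, 0.195 and 0.146 RPKM in controls 1 to 3, from 9, 8 and 5 reads. Every miR_cKO library lay above every control. In a fit without the filter on low values the log2 difference was 0.36 and did not pass (limma, adjusted p = 0.209). Its partner chain, H2-Ea-ps, was listed at 0 throughout; the E alpha gene is known to be silent in the b haplotype of C57BL/6. H2-DMb2 also had groups that did not overlap, with 1, 1 and 0 reads in miR_cKO and 1, 3 and 2 reads in controls, too few to read an order from. Of the 28 members below the filter but above 0, 4 had groups that did not overlap (14.3%), against 7.23% of all genes of that kind. Of these 4, H2-Eb1 and H2-Q5 were higher in miR_cKO (2.52% of all such genes) and H2-DMb2 and Tap1 lower (4.71%). H2-Q5, a class Ib gene, had 5, 9 and 9 reads in miR_cKO and 4, 1 and 3 reads in controls. In the fit without the filter 2 of the 28, H2-Eb1 and H2-Q5, had an unadjusted p under 0.05 (limma). Over all 20024 genes of that fit, which include those above the filter, the share was 4.96%.

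Cells known for class II expression were present at low levels. Of 20 macrophage and other leukocyte markers, 19 were in the table and 14 could be tested; none of these passed, with 4 above and 10 below 0, and their summed level was 33.0, 62.6 and 59.8 RPKM in miR_cKO 1 to 3, against 47.9, 68.9 and 51.2 RPKM in controls 1 to 3. The macrophage receptor Csf1r was between 2.86 and 4.88 RPKM in miR_cKO and between 3.81 and 5.22 RPKM in controls. The list of dendritic, B and T cell markers summed to between 4.84 and 5.45 RPKM in miR_cKO and between 5.62 and 6.57 RPKM in controls. Most of it came from Zbtb46, a transcription factor of dendritic cells and endothelium, which was at 4.28, 4.29 and 3.72 RPKM in miR_cKO 1 to 3 and at 5.51, 4.38 and 5.26 RPKM in controls 1 to 3. Its miR_cKO libraries lay below all controls, as did those of 6.24% of all genes tested. The log2 difference of Zbtb46 was -0.24 and did not pass (limma, adjusted p = 0.988). None of 12 endothelium markers passed, with 9 above and 3 below 0 and a median log2 difference of 0.05. Batf3 was between 0.286 and 0.987 RPKM in miR_cKO and between 0.510 and 0.711 RPKM in controls, and Flt3 between 0.120 and 0.198 RPKM in miR_cKO and between 0.124 and 0.206 RPKM in controls. The other 9 markers of the dendritic, B and T cell list were at no more than 0.176 RPKM in any library. Fewer cells of a type and less RNA per cell cannot be told apart in such bulk samples. The part of these cells in the level of H2-DMa was not tested.

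**Figure D3:**
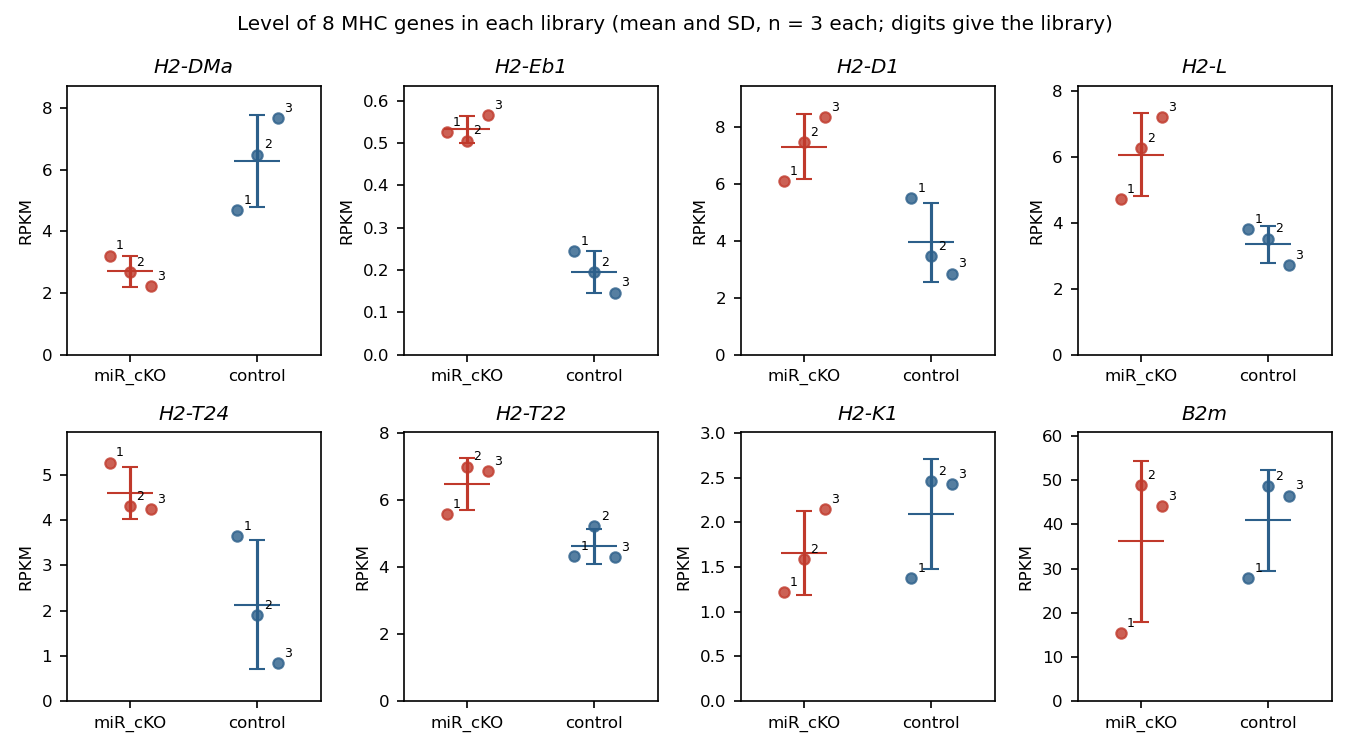
Level in RPKM of 8 MHC genes in each library, with points for single libraries, the library number beside each point, and the mean with SD of 3 libraries. For H2-DMa the miR_cKO libraries lie below all controls, for H2-Eb1, H2-D1, H2-L, H2-T24 and H2-T22 above them, and for H2-K1 and B2m the groups overlap.

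The classical class I genes, or class Ia, differed among themselves. H2-D1 was at 6.09, 7.48 and 8.35 RPKM in miR_cKO 1 to 3, and at 5.51, 3.47 and 2.85 RPKM in controls 1 to 3. The groups did not overlap, with control 1 close under miR_cKO 1. The means were 7.31 ± 1.14 RPKM in miR_cKO and 3.94 ± 1.39 RPKM in controls, a log2 difference of 0.78 (SE 0.21) that did not pass (limma, adjusted p = 0.571); with controls 2 and 3 left out it was 0.34.

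H2-L, the neighbour of H2-D1 in strains that carry both, was at 4.70, 6.26 and 7.19 RPKM in miR_cKO and at 3.80, 3.51 and 2.71 RPKM in controls (log2 difference 0.69, limma, adjusted p = 0.433). Its level ran between 0.691 and 1.01 of that of H2-D1 in all 6 libraries. C57BL/6 is known to lack a separate L gene, and H2-L had no match in the annotation, so reads may be split between these 2 rows and their values are uncertain.

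H2-K1, the other classical gene, was at 1.22, 1.59 and 2.15 RPKM in miR_cKO and at 1.38, 2.46 and 2.43 RPKM in controls, and the groups overlapped. Its log2 difference of -0.21 was within the spread (limma, adjusted p = 1.00), and turned to 0.14 with controls 2 and 3 left out. Within a library H2-D1 was at 4.98, 4.71 and 3.88 times the level of H2-K1 in miR_cKO 1 to 3, and at 3.99, 1.41 and 1.17 times in controls 1 to 3. Control 1, which carried the Cre, thus lay within the range of the miR_cKO libraries, while control 3, which also carried it, lay lowest.

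Non-classical class I genes, or class Ib, were the largest class, with 29 members of which 11 could be tested. None passed; 7 had a log2 difference above 0 and 4 below 0, with a median of 0.25 beside -0.02 over all genes. With H2-Q6 and H2-Q8 counted as 1 gene, and H2-T22 and H2-T9 likewise, since these pairs share reads or nearly so, 5 of 9 were above 0 and 4 below 0, with a median of 0.19. H2-T24, a member of the T region, was at 5.27, 4.31 and 4.24 RPKM in miR_cKO 1 to 3 and at 3.65, 1.90 and 0.839 RPKM in controls 1 to 3. The groups did not overlap, and the controls spread over a wider range than the miR_cKO libraries. Its log2 difference of 0.94 (SE 0.31) did not pass (limma, adjusted p = 0.774), and was 0.60 without control 3 and 0.26 without controls 2 and 3.

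H2-T22, which encodes a ligand of some gamma delta T cell receptors, was at 5.57, 6.99 and 6.85 RPKM in miR_cKO and at 4.33, 5.21 and 4.29 RPKM in controls. The groups did not overlap, and the log2 difference was 0.41 (limma, adjusted p = 0.618). H2-T9 followed it at a nearly fixed ratio, with H2-T22 between 0.936 and 0.959 of H2-T9 in every library. H2-T10, its close relative, was at 1.66, 2.02 and 1.89 RPKM in miR_cKO and at 1.45, 1.51 and 1.54 RPKM in controls, again without overlap (log2 difference 0.19, limma, adjusted p = 1.00). H2-T23, which encodes Qa-1, a ligand of the NKG2 receptors of natural killer cells, was at 2.32 ± 0.444 RPKM in miR_cKO and 2.47 ± 0.286 RPKM in controls, and the groups overlapped.

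The Q region was lower in level. H2-Q4 was at 1.70 ± 0.409 RPKM in miR_cKO and 1.24 ± 0.314 RPKM in controls, and H2-Q1 at 1.01 ± 0.193 RPKM in miR_cKO and 1.02 ± 0.161 RPKM in controls. H2-Q6 and H2-Q8 had identical estimated reads in all 6 libraries, and so did H2-Q7 and H2-Q9, the genes of the Qa-2 antigen. Each of these pairs is therefore a single measurement, and the sources do not say how shared reads were assigned. The log2 difference was 0.26 for H2-Q6 (limma, adjusted p = 1.00) and 0.27 for H2-Q7 in the fit without the filter (limma, adjusted p = 0.984). H2-M5, from the distal M region, was at 2.27, 0.926 and 0.868 RPKM in miR_cKO and at 1.40, 1.05 and 1.55 RPKM in controls, and the pseudogene H2-K2 at 0.916 ± 0.180 RPKM in miR_cKO and 0.986 ± 0.152 RPKM in controls. The summed level of the 32 class I genes was 43.2, 51.7 and 54.0 RPKM in miR_cKO 1 to 3, and 36.1, 37.2 and 33.9 RPKM in controls 1 to 3, a sum in which shared reads may count more than once.

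B2m, the light chain of all these molecules, divided the libraries along another line. It was at 15.4, 48.9 and 44.2 RPKM in miR_cKO 1 to 3, and at 27.8, 48.6 and 46.5 RPKM in controls 1 to 3, from 317 to 1082 estimated reads. It was low in miR_cKO 1 and control 1 and between 44.2 and 48.9 RPKM elsewhere. The log2 difference of -0.29 was within the spread (limma, adjusted p = 1.00) and turned to 0.22 without miR_cKO 1. H2-K1 was lowest in these same 2 libraries, as were the summed macrophage and mesenchyme levels given above. Whether these cell types account for the B2m level was not tested.

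The processing genes were scarce, apart from Tapbp. Tapbp was at 3.93 ± 0.546 RPKM in miR_cKO and 4.33 ± 0.351 RPKM in controls (SD, n = 3 each; log2 difference -0.12, limma, adjusted p = 1.00). Tap1 had 15, 8 and 13 estimated reads in miR_cKO 1 to 3 and 16, 28 and 15 reads in controls 1 to 3. Its values, 0.188 ± 0.0568 RPKM in miR_cKO and 0.301 ± 0.0817 RPKM in controls, did not overlap. In reads, however, miR_cKO 1 and control 3 were equal at 15, so the order of these 2 rests on depth scaling alone. Tap2, Psmb8 and Psmb9 had 24, 45 and 27 reads over all libraries. The transactivators were near the floor, with 27 reads for Nlrc5 and 16 for Ciita. The 2 remaining H2- genes, H2-Ke2 and the steroid dehydrogenase gene H2-Ke6, had log2 differences of -0.18 and -0.23 (limma, adjusted p = 0.855 and 0.956). H2-Ke6 averaged 12.8 ± 1.10 RPKM in miR_cKO and 15.3 ± 1.44 RPKM in controls, with overlap.

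Genes that act around the MHC showed no call in either direction. In a list of 41 interferon pathway genes, which include known inducers of class I, 21 could be tested, with 7 above and 14 below 0, a median log2 difference of -0.02 and none at an unadjusted p under 0.05. Stat2, Ifnar2, Trim25 and Jak1 had the smallest p, with log2 differences of -0.20, -0.14, -0.15 and -0.07, and Irf1 was at 1.39 ± 0.0421 RPKM in miR_cKO and 1.55 ± 0.235 RPKM in controls. In a list of 38 genes of the wider presentation pathway 34 could be tested, with 14 above and 20 below 0 and a median of -0.02, and none passed. Rela, a subunit of NF-kappa B, was at 9.75 ± 0.0925 RPKM in miR_cKO and 11.5 ± 0.826 RPKM in controls, and Ctsl, a lysosomal protease, at 61.0 ± 4.27 RPKM in miR_cKO and 69.5 ± 1.94 RPKM in controls (limma, adjusted p = 0.844 and 0.868). Hfe, a class I-like regulator of iron uptake, was at 0.891 ± 0.123 RPKM in miR_cKO and 1.40 ± 0.411 RPKM in controls. Calreticulin, Calr, a chaperone of class I loading, was at 401 ± 21.4 RPKM in miR_cKO and 356 ± 23.7 RPKM in controls.

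The promoters of members on which these results turn are shown next, as windows of 300 bases around the annotated start, to set their known elements beside the levels (RefSeq, GRCm38.p6, plus strand). Capitals mark matches on either strand to the core of enhancer A (GGGGATTCC), of the interferon response element (GAAANNGAA, or its short form GAAGTGAAA), and of the X1 (AACNGATG), X2 (TGATGACG) and Y (CTGATTGG) boxes, the last 3 of which are read by the complex that recruits Ciita and Nlrc5.
H2-D1, chr17:35262844-35263143: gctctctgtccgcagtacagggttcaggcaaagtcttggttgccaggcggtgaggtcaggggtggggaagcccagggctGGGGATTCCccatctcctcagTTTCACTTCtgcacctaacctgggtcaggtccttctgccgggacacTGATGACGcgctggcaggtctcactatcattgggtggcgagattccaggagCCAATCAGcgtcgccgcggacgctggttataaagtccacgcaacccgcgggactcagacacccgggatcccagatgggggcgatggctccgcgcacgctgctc
B2m, chr2:122147437-122147736: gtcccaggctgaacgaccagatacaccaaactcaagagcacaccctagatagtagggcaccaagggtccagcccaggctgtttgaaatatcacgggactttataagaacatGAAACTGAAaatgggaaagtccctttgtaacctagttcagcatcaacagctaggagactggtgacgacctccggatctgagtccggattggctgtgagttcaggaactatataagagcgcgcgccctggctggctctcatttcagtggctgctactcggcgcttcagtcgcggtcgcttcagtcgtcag
H2-Eb1, chr17:34305617-34305916: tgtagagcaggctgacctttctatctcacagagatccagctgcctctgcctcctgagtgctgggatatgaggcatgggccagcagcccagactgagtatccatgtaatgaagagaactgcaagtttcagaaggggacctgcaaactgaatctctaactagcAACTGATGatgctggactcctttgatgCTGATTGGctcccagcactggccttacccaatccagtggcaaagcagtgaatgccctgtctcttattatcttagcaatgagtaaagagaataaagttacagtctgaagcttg
H2-DMa, chr17:34122582-34122881: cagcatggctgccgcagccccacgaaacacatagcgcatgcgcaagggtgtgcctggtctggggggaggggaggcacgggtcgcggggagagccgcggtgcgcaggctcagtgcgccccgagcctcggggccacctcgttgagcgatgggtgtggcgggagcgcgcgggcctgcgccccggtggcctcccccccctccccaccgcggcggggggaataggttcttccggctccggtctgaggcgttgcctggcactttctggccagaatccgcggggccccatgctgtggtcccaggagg
The H2-D1 window held enhancer A, the short interferon form, X2 and Y, and the H2-Eb1 window X1 and Y. B2m held the interferon response element, and H2-DMa held no match. Only exact matches to these letters were counted, so the lack of a match does not show that an element is absent. The H2-DMa window was rich in CpG, with 29 CpG and 73.0% G and C in 300 bases, against 0 CpG and 48.0% for H2-Eb1. It also holds the annotated start of Brd2 on the other strand. A second annotated start of H2-DMa had a window with 0 CpG, 39.0% G and C and no match.

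Of the 37 members with a promoter in the table, 19 held the Y box (51.4%), which was in 4.10% of all 32851 promoters of this length. Members were counted by gene, with 41 promoters among them, and the share of all was counted by promoter. The shares given here therefore differ in unit. They also test no enrichment, since the elements were chosen as known ones of MHC promoters. The cores were moreover taken after longer forms had matched fewer promoters. The enhancer A core was in 4 members (10.8%), H2-D1, H2-K1, H2-Q6 and H2-Q7, and in 0.25% of all promoters. The short interferon form was in 7 members (18.9%) and 0.505% of all, and the longer form in 3 (8.11%) and 8.56%. X1 was in 5 (13.5%) and 2.32%, and X2 in 4 (10.8%) and 0.794%. No match of one element overlapped that of another in the windows printed. H2-D1 and H2-K1 both held enhancer A, the short interferon form and the Y box. Their log2 differences were 0.78 and -0.21, neither of which passed, and the part of these elements in them was not tested. Members that arose by duplication share much of their promoter, so these matches are not independent, and they describe letters, not binding.

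By position, 45 of the members lie on chromosome 17. Between the first and last H2- gene there (mm10, 33938821 to 37483552) the table held 148 genes that are not members, of which 80 could be tested. None passed, while 12 had an unadjusted p under 0.05 (15%, against 5.16% of all genes), 9 of them above 0 and 3 below 0. The groups did not overlap for 13 of the 80 (16.2%, against 10.9% of all genes), and their median log2 difference was -0.03.

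**Figure D4:**
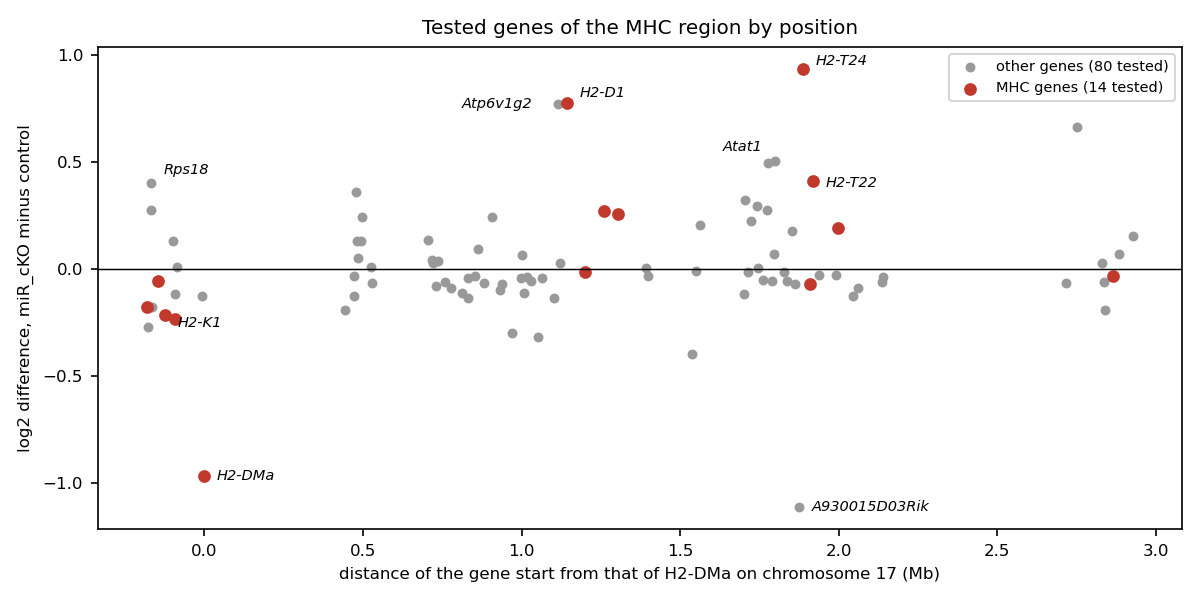
Fitted log2 difference, miR_cKO minus control, of each tested gene of the MHC region against the distance of its annotated start from that of H2-DMa in Mb, with 14 MHC genes in red and 80 other genes in grey. Most genes lie near 0 along the whole region, H2-DMa lies far below its neighbours, A930015D03Rik lies lowest at -1.11, and Atp6v1g2 lies beside H2-D1 at nearly the same height.

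The gene with the smallest p among the neighbours overlaps members. A930015D03Rik, a long noncoding RNA on the plus strand (35994453 to 36038435), spans H2-T24 and H2-T23 and part of H2-T22, which lie on the minus strand. It was at 1.65, 1.57 and 1.73 RPKM in miR_cKO 1 to 3 and at 3.59, 5.07 and 5.75 RPKM in controls 1 to 3, with a log2 difference of -1.11 (SE 0.15) that did not pass (limma, adjusted p = 0.0916). Its libraries were low where H2-T24 was high, and control 1 lay nearest to miR_cKO for both. The library kit marks strand, per the labels' protocols, but whether the counting used it is not given, so reads of these overlapping genes may not be told apart. Annotated spans of other members overlap further genes of the table. H2-T10 shares 5590 bases, its whole span, with Gm7030, and Tapbp shares 3422 bases with Zbtb22, each on the same strand. B2m shares 5398 bases with Patl2 on the other strand. How reads in these overlaps were counted is not given either.

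Other neighbours by smallest p were Atat1, an alpha-tubulin acetyltransferase, at 44.4 ± 3.51 RPKM in miR_cKO and 31.2 ± 0.901 RPKM in controls, and Atp6v1g2, a proton pump subunit, at 6.85 ± 0.782 RPKM in miR_cKO and 3.60 ± 0.489 RPKM in controls (log2 differences 0.50 and 0.77, limma, adjusted p = 0.117 and 0.138). The ribosomal protein gene Rps18 was at 471 ± 44.0 RPKM in miR_cKO and 355 ± 19.7 RPKM in controls (limma, adjusted p = 0.408).

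H2-DMa (mm10, chromosome 17, 34119541 to 34139101, plus strand) overlaps Brd2, a bromodomain gene on the minus strand, over 3094 bases at the 5' end of its GENCODE span. Both RefSeq starts of H2-DMa, on which the promoter windows were placed, lie past the end of Brd2, so this overlap depends on the annotation, and the one used for counting is not given. Brd2 was at 58.3, 57.0 and 58.7 RPKM in miR_cKO 1 to 3 and at 60.4, 66.6 and 63.3 RPKM in controls 1 to 3, far above H2-DMa. Its log2 difference was -0.13 (limma, adjusted p = 1.00), and its groups did not overlap either. The level of H2-DMa was 0.0551, 0.0468 and 0.0378 of that of Brd2 in miR_cKO, and 0.0778, 0.0974 and 0.121 in controls. The log2 difference was thus -0.97 for H2-DMa and -0.13 for Brd2, and how much of the H2-DMa value comes from the overlap was not tested.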

How the data were processed

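Polyadenylated RNA from lumbar dorsal root ganglia at E12.5 was sequenced in 3 miR_cKO and 3 control libraries. Per the submitters' processing notes, Bowtie and the mm10 build were used. For the counting tool, the annotation and shared reads, nothing is stated in the sources. The authors deposited 1 table of 24264 genes with a decimal comma and no unit in its header. The deposited values, of another kind than counts, were read as RPKM: they were whole multiples, within 0.02 read, of a step per gene for 95.6% of 18983 genes, those with 2 or more libraries above 0. Longer transcripts had smaller steps (rho = -0.914, Spearman, over 2195 single-transcript genes, which are not independent). RPKM and FPKM cannot be told apart. The steps gave each library's depth and each gene's reads, as the smallest whole numbers that fit. They cover counting error only.

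On the log2(RPKM + 1) scale, limma 3.58.1 (R 4.3.3, empirical Bayes with trend and robust settings) tested the genes that reached 1 RPKM in 3 or more libraries, with p adjusted over all 13118 genes at 0.05. The scale understates changes of low genes. The count test planned for a count table was not used. In simulated independent genes with these means and spreads, log2 changes of 1 and 0.5 were planted in 100 genes each, of 13118. The change of 1 was found in 76.0% of cases and that of 0.5 in 38.0%, and 3.39% of calls were false. In the real data 8 genes passed, so the unadjusted p needed to pass was smaller there. These shares therefore do not give the power of the real comparison. The members and lists were chosen with earlier results of these data known. Named were all members with a mean of 1 RPKM or that were tested, the smallest p in each class, the 4 smallest p in the interferon and in the wider presentation list, the 4 smallest among other genes of the region, and H2-DMa; Brd2, Irf1, Csf1r, Zbtb46, Batf3, Flt3, H2-Eb1 and other scarce members were named after their values were seen.

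Of the members 49 matched GENCODE M21 (mm10), 1 of them, H2-Ke2, through a RefSeq synonym; H2-L, H2-Q8, H2-Q9 and H2-T9 had no match. Seed matches were searched in the 3' UTR of the principal transcript, and promoter motifs in RefSeq windows. Motif cores of 8 or 9 letters are reported; longer forms of enhancer A, the interferon element and X1 had been searched first and matched fewer promoters. Replicate numbers were not taken to pair libraries: deviations from the group means correlated at 0.36, 0.33 and -0.22 between same-numbered libraries. Python 3.11.15 with pandas 2.3.3, NumPy 2.4.6 and matplotlib 3.10.9 made the figures. Alternatives covered pseudocount, filter, scaling, variance model, replicate block and left-out libraries.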

Additional observations from a re-analysis of the deposited data

How the results depend on the processing

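No MHC gene passed in limma under any of the 14 alternatives, and 14 of the 19 tested kept the sign of their log2 difference wherever they could be fitted. H2-DMa ranged from -1.18 to -0.63 (limma, adjusted p from 0.159 to 1.00), H2-D1 from 0.34 to 0.99 and H2-T24 from 0.26 to 1.29. The values of 5 genes changed sign. With controls 2 and 3 left out, an alternative chosen after seeing the data that leaves 1 control assumed to vary like the others, B2m was 0.21, H2-K1 0.14 and H2-T23 0.071. Leaving out 1 library, B2m ranged from -0.59 to 0.22, H2-M5 from -0.29 to 0.11, H2-Q1 from -0.080 to 0.070 and H2-T23 from -0.16 to 0.032. With median centring H2-Q1 was 0.017.

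The count of all genes that passed, 8, was 2 with median centring and 0 with upper quartile scaling, with neither trend nor robust settings, with controls 2 and 3 left out and with a replicate block, where 700, 709, 395 and 847 genes, in that order, had an unadjusted p under 0.05. It was 0 to 2 with a library left out. The replicate block changed no call on an MHC gene; libraries did not all correlate best with their own number. MHC genes at an unadjusted p under 0.05, 8, were 2 of 3 with a minimum of 10 RPKM and 3 of 14 with controls 2 and 3 left out. The 2 with a minimum of 10 RPKM were H2-Ke2 and H2-Ke6, which have no part in presentation. The median of class I genes, 0.26, was 0.44 with a pseudocount of 0.1 and 0.039 without a filter. That of class II genes, where H2-DMa alone was tested, was 0.014 without a filter and -0.63 with controls 2 and 3 left out. The causes of these moves were not tested. Depth limits 18 MHC genes with 50 reads or fewer.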
